A study of Mus musculus with 18 samples.

Results

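The genes described here make up the IgE receptor, the *Kit* axis, and other mast cell regulators. They are *Fcer1a*, *Ms4a2*, and *Fcer1g* (the chains of the high-affinity IgE receptor), *Kit* and *Kitl* (the stem cell factor receptor and its ligand), and *Hdc*, *Gata2*, *Il1rl1*, *Srgn*, and *Cd200r3*. These 10 genes, of 20878 in the expression matrix, were chosen by name, as mast cell genes other than granule proteases, and some of them were chosen because they were lower in *ATRXKD* than in *ATRXCT* tumors of Balb/c mice. The Balb/c comparison is therefore given as a description, with no test. Tests were run on 2 other contrasts. *ATRXKD* against *ATRXCT* tumors in NSG mice used no tumor of the Balb/c comparison. The list was nevertheless made with earlier results of these data known. Balb/c against NSG hosts, averaged over both shRNAs, was not the contrast of the choice but includes the same Balb/c tumors. It is therefore not free of the choice.

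RNA was measured in 18 tumors grown from K7M2 cells, a mouse osteosarcoma line of Balb/c origin, each from a different mouse. Cells carried a lentiviral control shRNA (*ATRXCT*) or an shRNA against *Atrx* (*ATRXKD*), each as 1 transduced population, and were injected under the skin of mice described as female and 6 to 8 weeks old. The hosts were immunocompetent Balb/c mice (4 *ATRXCT* and 4 *ATRXKD* tumors) or immunodeficient NSG mice, which carry the Prkdc scid mutation and no functional Il2rg (5 *ATRXCT* and 5 *ATRXKD* tumors). Whole cages of 5 mice were assigned to 1 kind of cell, so the cage and the shRNA cannot be told apart. K7M2 cells alone were not analysed here, so no value separates RNA of grafted cells from RNA of host cells.

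Mast cells are granule-filled tissue leukocytes that store histamine, proteases, and proteoglycans. Their IgE receptor is assembled from an alpha chain that binds IgE (*Fcer1a*), a beta chain that amplifies the signal (*Ms4a2*), and a gamma chain (*Fcer1g*) that other receptors of myeloid cells share. Mast cells depend on KIT, which responds to stem cell factor made by surrounding cells (*Kitl*), and on the transcription factor GATA2. *Hdc* encodes the enzyme that makes histamine, *Il1rl1* encodes ST2, the receptor for the alarmin IL-33, *Srgn* encodes serglycin, the proteoglycan core of secretory granules, and *Cd200r3* encodes a receptor of the CD200 receptor family found on mast cells and basophils.

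Promoter sequences of all 10 genes were found in RefSeq (GRCm38.p6, the assembly of mm10), as the 250 bases before each start site. The letters bound by GATA factors were searched on both strands as the word AGATAA, its variant ending in G (AGATAG), and the same pair starting with T (TGATAA, or with a final G TGATAG), and they occurred in 5 of the 10 windows, against 26.5% of 32851 promoter windows of the same length. They were absent from the windows of *Kit*, *Kitl*, *Gata2*, *Fcer1g*, and *Srgn*. *Hdc* held 1 match, *Fcer1a* 1, *Ms4a2* 3, *Cd200r3* 3, and *Il1rl1* 5. The E-box letters CACGTG, or CATGTG as a variant, searched on both strands, occurred in 1 of the 10 windows, that of *Fcer1a*, against 17.6% of all windows. A match of letters is a description of the sequence and says nothing of binding. The 3 promoters whose genes varied together across the tumors are shown with that of *Il1rl1*, which holds the most matches and whose level followed another pattern. GATA matches are in capitals, matches on the opposite strand read as their complement, and each window is given on the strand of its gene.
Fcer1a (chr1:173227230-173227479, minus strand): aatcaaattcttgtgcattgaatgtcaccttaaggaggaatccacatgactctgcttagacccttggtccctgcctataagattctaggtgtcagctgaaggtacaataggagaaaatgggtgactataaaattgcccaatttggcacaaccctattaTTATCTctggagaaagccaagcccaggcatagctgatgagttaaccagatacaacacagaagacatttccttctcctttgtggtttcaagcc
Ms4a2 (chr19:11623720-11623969, minus strand): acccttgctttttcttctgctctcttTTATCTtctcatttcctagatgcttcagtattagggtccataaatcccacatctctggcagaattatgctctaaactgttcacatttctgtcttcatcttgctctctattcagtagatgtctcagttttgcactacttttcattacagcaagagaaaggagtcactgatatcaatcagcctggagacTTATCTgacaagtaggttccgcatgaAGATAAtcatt
Cd200r3 (chr16:44943428-44943677, plus strand): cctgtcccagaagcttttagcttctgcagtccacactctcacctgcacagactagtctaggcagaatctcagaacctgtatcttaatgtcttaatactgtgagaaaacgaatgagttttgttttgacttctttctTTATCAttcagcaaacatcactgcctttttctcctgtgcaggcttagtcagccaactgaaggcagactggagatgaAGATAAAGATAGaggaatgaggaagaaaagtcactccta
Il1rl1 (chr1:40429320-40429569, plus strand): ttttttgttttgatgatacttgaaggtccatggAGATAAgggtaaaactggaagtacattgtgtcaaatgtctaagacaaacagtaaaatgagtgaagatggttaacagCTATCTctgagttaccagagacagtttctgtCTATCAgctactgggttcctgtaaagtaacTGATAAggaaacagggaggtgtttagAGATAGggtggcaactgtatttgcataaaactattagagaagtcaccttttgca

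Values are FPKM, the fragments of a gene per kilobase of its transcript, relative to the total of the library. Differences are on the log2 (FPKM + 1) scale, on which genes of low FPKM appear to change less than they do. Library depth was roughly estimated from the values at 15150000 to 25200000 fragments, and all numbers of fragments given below rest on this estimate. *Atrx*, the target of the shRNA, was between 10.3 and 26.0 FPKM in *ATRXCT* and between 7.88 and 21.5 FPKM in *ATRXKD* tumors of Balb/c mice, and between 11.6 and 24.4 against 8.42 and 16.4 FPKM in NSG mice, so the groups overlapped in both hosts. T and NK cell genes marked the Balb/c tumors, as given below for *Kit*. Y-linked genes went against the stated sex of the hosts and of the K7M2 line, both given as female. The mean of 4 of them was 1.90 to 3.04 in log2 (FPKM + 1) in NSG tumors and at most 0.0041 in Balb/c tumors. Strain, immune status, and a possible difference in sex cannot be told apart in any host comparison. Of the osteoblast markers, *Runx2* (4.87 to 6.86 FPKM as group means) and *Col1a1* (95.3 to 226 FPKM) were expressed, whereas *Ibsp* was under 0.1 FPKM in every tumor and *Sp7* averaged at most 0.0639 FPKM in a group. Libraries also differed in how FPKM ran with transcript length, by −0.15 to 0.21 log2 units for each doubling in length, in every group on both sides of 0. In bulk tumors, fewer cells of a type and less RNA per cell cannot be told apart.

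The alpha and beta chains of the IgE receptor had their highest means in *ATRXCT* tumors of Balb/c mice, whereas the gamma chain was abundant in all groups. *Fcer1a* was at 12.5, 6.81, 7.98, and 4.22 FPKM in the 4 Balb/c *ATRXCT* tumors and at 0.666, 3.20, 1.46, and 2.83 FPKM in the 4 *ATRXKD* tumors. In NSG mice, it was at 3.72, 1.43, 0.968, 5.25, and 6.25 FPKM in *ATRXCT* tumors and at 2.73, 3.01, 3.82, 5.14, and 2.79 FPKM in *ATRXKD* tumors. The lowest Balb/c *ATRXCT* tumor was thus above the highest Balb/c *ATRXKD* tumor, while the NSG groups overlapped fully. *Ms4a2* was at 2.03, 1.60, 0.756, and 1.08 FPKM in Balb/c *ATRXCT* tumors and at 0.189, 0.271, 0.0896, and 0.620 FPKM in Balb/c *ATRXKD* tumors. In NSG mice, the beta chain was at 0.288, 0.0707, 0.197, 0.429, and 0.702 FPKM in *ATRXCT* tumors and at 0.432, 1.11, 0.298, 0.576, and 0.226 FPKM in *ATRXKD* tumors. The values of *Ms4a2* are close to the limit of depth, since the lowest of them rests on about 3.35 fragments.

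The Balb/c groups, which took part in the choice, differed by −1.56 for *Fcer1a* and by −0.86 for *Ms4a2* on the log2 scale. As mean FPKM, *ATRXCT* tumors were 3.87-fold higher for *Fcer1a* (7.88 ± 3.46 against 2.04 ± 1.18 FPKM) and 4.68-fold higher for *Ms4a2* (1.37 ± 0.565 against 0.292 ± 0.231 FPKM; SD, n = 4 each). In NSG mice, whose tumors were not in the Balb/c comparison, neither chain passed the test. *Fcer1a* was at 3.52 ± 2.31 FPKM in *ATRXCT* and 3.50 ± 1.01 FPKM in *ATRXKD* tumors (SD, n = 5 each), a log2 difference of 0.14 (standard error 0.34, adjusted p = 0.826, limma; p = 0.690 by exact permutation). For *Ms4a2*, the NSG means were 0.337 ± 0.242 and 0.528 ± 0.351 FPKM (SD, n = 5 each), with a log2 difference of 0.18 (standard error 0.16, adjusted p = 0.495, limma; p = 0.325 by exact permutation). Whether the effects in the hosts differ was not tested, because such a test would use the contrast behind the choice. Averaged over the shRNAs, *Fcer1a* differed between hosts by 0.22 (adjusted p = 0.620 in limma) and *Ms4a2* by 0.29 (adjusted p = 0.160 in limma), neither passing the test. By shRNA, the host difference of *Fcer1a* was 1.07 among *ATRXCT* and −0.63 among *ATRXKD* tumors, and that of *Ms4a2* was 0.81 and −0.23.

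*Fcer1g*, the gamma chain, was far above both partners at the level of FPKM, which is per length of transcript. It was between 157 and 334 FPKM in Balb/c *ATRXCT* tumors (median ratio to *Fcer1a*, 31.7) and between 157 and 283 FPKM in Balb/c *ATRXKD* tumors (median ratio, 134.8). The Balb/c means were 234 ± 81.5 and 230 ± 56.5 FPKM (SD, n = 4 each), a log2 difference of 0.0036. In NSG mice, *Fcer1g* was at 313, 313, 237, 351, and 293 FPKM in *ATRXCT* tumors and at 279, 153, 193, 227, and 170 FPKM in *ATRXKD* tumors. All but 1 of the NSG *ATRXKD* tumors were below every *ATRXCT* tumor. The log2 difference was −0.58 (standard error 0.17) and did not pass the adjusted threshold (adjusted p = 0.0583, limma; p = 0.0159 by exact permutation). With 1 tumor left out, the adjusted p was between 0.0204 and 0.156 in limma, and it passed in 2 of 10 such fits: without the *ATRXKD* tumor of mouse 26 it was −0.70 (adjusted p = 0.0204), and without the *ATRXCT* tumor of mouse 3 it was −0.66 (adjusted p = 0.0263). After removal of the length trend it was −0.53 (adjusted p = 0.0151 in limma), and in a single fit of all 4 groups the adjusted p was 0.116 in limma. *Fcer1g* has a short transcript of 658 nt, and its deviations from the group means ran with the length slope of the libraries (r = −0.90 over 18 tumors). Between hosts, the gamma chain differed by −0.13 (adjusted p = 0.635 in limma).

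**Figure D1:**
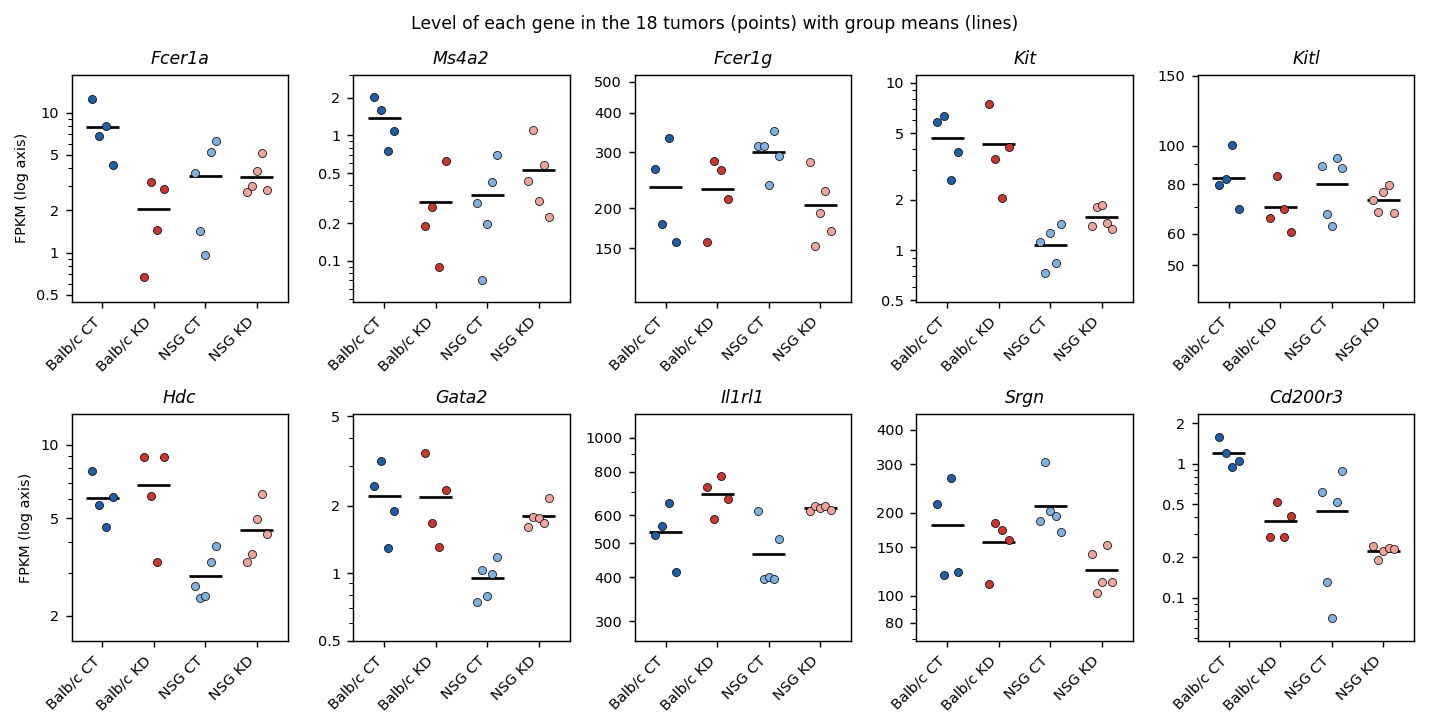
FPKM on a log axis for each of the 10 genes in the 18 tumors (points), by host and shRNA (CT for *ATRXCT*, KD for *ATRXKD*), with a line at the group mean. *Fcer1a*, *Ms4a2*, and *Cd200r3* of the Balb/c groups do not overlap, *Kit* of the Balb/c tumors lies above all NSG tumors, and *Gata2* and *Srgn* of the NSG groups do not overlap in opposite directions.

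*Cd200r3* followed the alpha and beta chains in Balb/c mice. It was at 1.57, 1.21, 0.948, and 1.05 FPKM in *ATRXCT* tumors and at 0.282, 0.517, 0.284, and 0.404 FPKM in *ATRXKD* tumors, which is 3.21-fold higher in *ATRXCT* tumors as mean FPKM and a log2 difference of −0.67. *Fcer1a*, *Ms4a2*, and *Cd200r3* were the 3 of the 10 genes lower without overlap in Balb/c *ATRXKD* tumors, as were 1.93% of the 14701 genes tested, and nothing is read from this count because the contrast chose them. In NSG mice, *Cd200r3* was at 0.617, 0.132, 0.0711, 0.516, and 0.878 FPKM in *ATRXCT* tumors and between 0.192 and 0.241 FPKM in all 5 *ATRXKD* tumors. The *ATRXKD* tumors lay inside the range of the *ATRXCT* tumors, and the log2 difference of −0.20 did not pass the test (standard error 0.14, adjusted p = 0.376, limma; p = 0.198 by exact permutation). With libraries weighted by quality and a robust prior, it was −0.36 (adjusted p = 0.0114 in limma). Its value in 1 NSG *ATRXCT* tumor was under the floor of 3 fragments.

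Between hosts, *Cd200r3* was higher in Balb/c mice by 0.40 on the log2 scale (standard error 0.095, adjusted p = 0.0122 in limma; permutation of hosts within each shRNA, p = 0.00107). Mean FPKM was 0.783 ± 0.480 in Balb/c (SD, n = 8) and 0.334 ± 0.254 in NSG tumors (SD, n = 10), or 2.35-fold. In FPKM, the hosts did not overlap within *ATRXCT* tumors or within *ATRXKD* tumors, as for 4.72% and 5.05% of all genes, with differences of 0.63 and 0.16. Among *ATRXKD* tumors, the lowest Balb/c value was 0.282 FPKM and the highest NSG value 0.241 FPKM. These values rest on few estimated fragments, which overlap, at about 6.75 to 12.5 in Balb/c and 5.47 to 7.50 in NSG tumors. The Balb/c *ATRXCT* tumors took part in the choice of this gene. *ATRXKD* tumors alone did not pass the test (adjusted p = 0.298 in limma), nor did *ATRXCT* tumors alone (adjusted p = 0.0818 in limma). Reads could also be shared in small part, since 1.8% of the 75 nt windows of *Cd200r3* transcripts and 1.22% of those of *Ms4a2* occur in another gene, against 0 for the other 8 genes.

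*Kit* was higher in Balb/c than in NSG tumors, whereas its ligand was at the same order of level everywhere. *Kit* was at 5.81, 6.30, 2.62, and 3.88 FPKM in Balb/c *ATRXCT* tumors and at 7.47, 3.48, 2.05, and 4.12 FPKM in Balb/c *ATRXKD* tumors. In NSG mice, *Kit* was at 1.11, 0.735, 1.27, 0.838, and 1.43 FPKM in *ATRXCT* tumors and at 1.39, 1.81, 1.85, 1.46, and 1.34 FPKM in *ATRXKD* tumors. Every Balb/c tumor was above every NSG tumor, as was the case for 1.53% of the 14803 genes tested between hosts. The host difference was 1.17 on the log2 scale (standard error 0.17, adjusted p = 0.000110 in limma; permutation of hosts within each shRNA, p = 6.3e-05, the smallest possible) and 3.37-fold as mean FPKM, from 1.32 ± 0.362 FPKM in NSG (SD, n = 10) to 4.47 ± 1.88 FPKM in Balb/c tumors (SD, n = 8). It was 1.40 among *ATRXCT* and 0.95 among *ATRXKD* tumors, and *ATRXKD* tumors alone did not pass the test (adjusted p = 0.0657 in limma). Leaving out any 1 tumor gave differences between 1.04 and 1.29, all passing the test.

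Other cell types also differed between these hosts. Of 6 T cell genes 5 were higher in Balb/c tumors, as were 4 of 4 NK cell genes and 5 of 8 endothelial genes, against 6.83% of all genes tested. The summed level of the endothelial list was between 51.0 and 84.5 FPKM in Balb/c *ATRXCT*, 71.1 and 161 in Balb/c *ATRXKD*, 24.8 and 60.8 in NSG *ATRXCT*, and 50.1 and 75.9 FPKM in NSG *ATRXKD* tumors. That of the NK cell list was between 18.4 and 51.7 FPKM in Balb/c tumors and at most 0.197 FPKM in NSG tumors, and that of the T cell list was between 19.97 and 40.6 FPKM against at most 6.07 FPKM. Their part in the *Kit* result was not tested. Of 5 melanocyte markers, another cell type that expresses *Kit*, *Tyr* was under 0.1 FPKM in every tumor, and the summed level of the 5 was at most 1.19 FPKM in a tumor.

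Within the groups, *Kit* did not run with *Fcer1a* (r = −0.035 between deviations from the group means over the 18 tumors), while its r with *Ms4a2* was 0.49. In Balb/c mice, its means were 4.66 ± 1.71 FPKM in *ATRXCT* and 4.28 ± 2.29 FPKM in *ATRXKD* tumors (SD, n = 4 each), with overlapping groups and a log2 difference of −0.14. The highest *Kit* of all 18 tumors was in the Balb/c *ATRXKD* tumor of mouse 56, which had the lowest *Fcer1a* (7.47 against 0.666 FPKM). The library of mouse 56 also had the highest length slope, at 0.21. Within the groups, the length slope gave r = 0.70 with *Kit* and −0.51 with *Fcer1a*, and the part of transcript length was not tested. In NSG mice, *Kit* differed by 0.31 in *ATRXKD* tumors (standard error 0.11) and did not pass the adjusted threshold (adjusted p = 0.101, limma; p = 0.0238 by exact permutation).

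*Kitl*, stem cell factor, was between 60.7 and 101 FPKM in all 18 tumors. Its group means were 82.9 ± 13.1 and 70.0 ± 9.94 FPKM in Balb/c *ATRXCT* and *ATRXKD* tumors (SD, n = 4 each) and 79.9 ± 13.9 and 73.0 ± 5.20 FPKM in the NSG groups (SD, n = 5 each). Neighbors in this order overlapped. No test passed for the ligand, at −0.11 in NSG mice (adjusted p = 0.584 in limma) and −0.0049 between hosts (adjusted p = 0.979 in limma). With a nearly level ligand, the median ratio of *Kitl* to *Kit* in FPKM was 15.8 and 19.4 in Balb/c *ATRXCT* and *ATRXKD* tumors, against 79.7 and 50.6 in the NSG groups.

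*Hdc* and *Gata2* ran with *Kit* within the groups (r = 0.65 and 0.85 over the 18 tumors). Their r with *Fcer1a* was 0.40 and −0.064, and with *Ms4a2* it was 0.46 and 0.38. *Hdc*, the histamine-forming enzyme, was at 7.77, 5.65, 4.61, and 6.12 FPKM in Balb/c *ATRXCT* tumors and at 8.90, 6.16, 3.31, and 8.90 FPKM in Balb/c *ATRXKD* tumors. In NSG mice, it was at 2.66, 2.36, 2.41, 3.32, and 3.84 FPKM in *ATRXCT* tumors and at 3.32, 3.59, 4.97, 6.31, and 4.32 FPKM in *ATRXKD* tumors. NSG *ATRXCT* tumors were the lowest group, below all Balb/c *ATRXCT* tumors. *Hdc* was higher in Balb/c hosts by 0.65 on the log2 scale (standard error 0.16, adjusted p = 0.0135 in limma; permutation of hosts within each shRNA, p = 0.00340), from 3.71 ± 1.23 FPKM (SD, n = 10) to 6.43 ± 1.99 FPKM (SD, n = 8). In NSG mice, the difference of 0.48 in *ATRXKD* tumors did not pass the adjusted threshold (standard error 0.16, adjusted p = 0.0867, limma; p = 0.0397 by exact permutation). The Balb/c groups overlapped and differed by 0.095. The host difference of *Hdc* among *ATRXKD* tumors alone was 0.46 (adjusted p = 0.414 in limma). A list of 6 neutrophil genes had a median host difference of 0.35, and the part of neutrophils in the values of *Hdc* was not tested.

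*Gata2*, the GATA factor of mast cells and their progenitors, rose in NSG *ATRXKD* tumors. It was at 0.744, 1.04, 0.790, 0.986, and 1.18 FPKM in NSG *ATRXCT* tumors and at 1.61, 1.78, 1.76, 1.66, and 2.15 FPKM in NSG *ATRXKD* tumors. The groups did not overlap, as was the case in this direction for 4.36% of the 14654 genes tested. The log2 difference was 0.52 (standard error 0.089, adjusted p = 0.0134, limma; p = 0.00794 by exact permutation, the lowest value that 5 against 5 allows), or 1.90-fold as mean FPKM. Endothelial cells also express *Gata2*, and endothelial genes had positive differences in the same comparison for 8 of 8 genes (median 0.70), of which *Pecam1* and *Tie1* passed the test, as did 6.78% of all genes tested. The deviations of *Gata2* and of the endothelial mean correlated at 0.50 over the 18 tumors, and the part of endothelial cells was not tested. The *Gata2* difference passed with any 1 NSG tumor left out (adjusted p between 0.0122 and 0.0423 in limma), but not in a single fit of all 4 groups (adjusted p = 0.0662 in limma). In Balb/c mice, *Gata2* was at 2.44, 3.17, 1.30, and 1.90 FPKM in *ATRXCT* tumors and at 3.42, 1.67, 1.30, and 2.36 FPKM in *ATRXKD* tumors. These groups overlapped, with a log2 difference of −0.017.

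Balb/c hosts were higher in *Gata2* by 0.42 on the log2 scale (standard error 0.12, adjusted p = 0.0365 in limma; permutation of hosts within each shRNA, p = 0.00970). The host difference was 0.69 among *ATRXCT* and 0.15 among *ATRXKD* tumors, where the hosts overlapped. This call depended on single tumors: with 1 tumor left out, the adjusted p was between 0.0102 and 0.0881 in limma, passing the threshold in 7 of 18 such fits, with the difference between 0.33 and 0.49. The fits that lost the call left out Balb/c mice 41, 43, 45, 56, or 60, or NSG mice 1, 2, 4, 26, 28, or 29. The largest p was without the tumor of mouse 43, and with no filter on low values it was 0.0552.

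**Figure D2:**
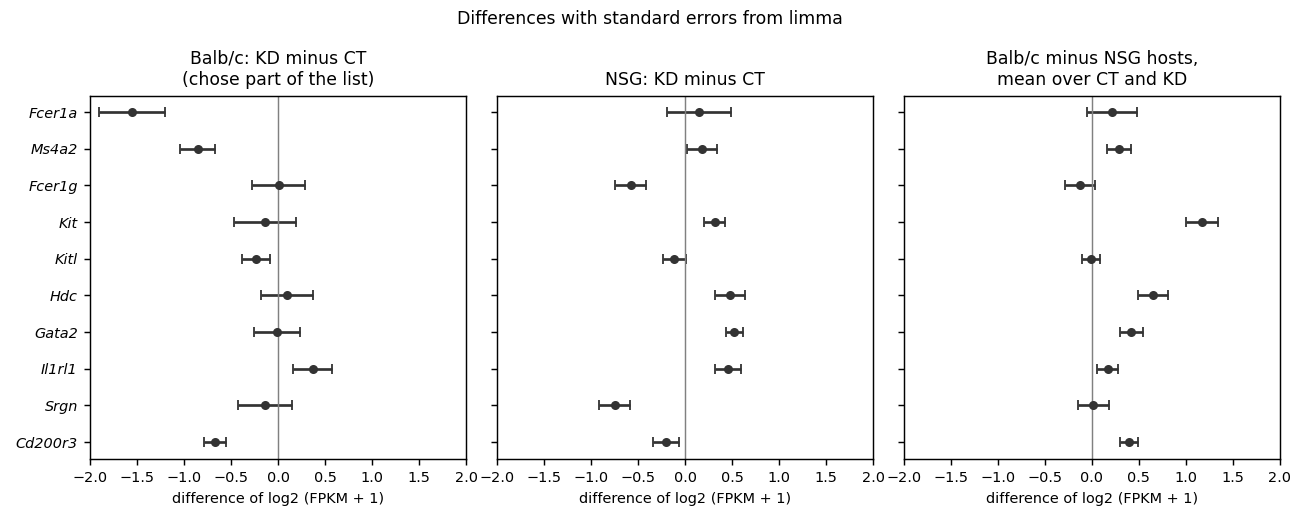
Difference of log2 (FPKM + 1) with its standard error from limma for each of the 10 genes, in Balb/c mice (*ATRXKD* minus *ATRXCT*, the comparison that chose some of the genes), in NSG mice (*ATRXKD* minus *ATRXCT*), and between hosts (Balb/c minus NSG). *Fcer1a* is at −1.56 in Balb/c mice and 0.14 in NSG mice, *Gata2* and *Srgn* are at 0.52 and −0.75 in NSG mice, and *Kit* is at 1.17 between hosts.

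*Srgn*, serglycin, fell in NSG *ATRXKD* tumors. It was at 187, 304, 204, 195, and 171 FPKM in NSG *ATRXCT* tumors and at 141, 103, 112, 153, and 112 FPKM in NSG *ATRXKD* tumors. The groups did not overlap, as was the case in this direction for 3.14% of the genes tested. The log2 difference was −0.75 (standard error 0.17, adjusted p = 0.0266, limma; p = 0.00794 by exact permutation, the lowest value that 5 against 5 allows), and *ATRXCT* tumors were 1.70-fold higher as mean FPKM. The call was lost without the tumor of mouse 1, 4, 28, or 30 (adjusted p = 0.0514, 0.0585, 0.0736, and 0.0844 in limma), while the difference stayed between −0.83 and −0.61, and in a single fit of all 4 groups the adjusted p was 0.0568 in limma. In Balb/c mice, *Srgn* was between 119 and 267 FPKM in *ATRXCT* and between 111 and 184 FPKM in *ATRXKD* tumors, with a log2 difference of −0.14. The host difference was 0.017 (adjusted p = 0.958 in limma).

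Of 8 macrophage markers in NSG mice, 2 (*C1qb* and *C1qc*) fell and 0 rose, and the median difference of the list was −0.47. Without passing the test, 5 others had lower means in *ATRXKD* tumors, and *Csf1r*, the receptor of the macrophage growth factor, had a higher one (321 ± 19.6 against 253 ± 53.9 FPKM; SD, n = 5 each). At an unadjusted p under 0.05 in limma, 7 were lower and 1 was higher. Over all genes tested in NSG mice, 6.78% passed and 26.3% had an unadjusted p under 0.05 in limma. The summed level of the list was between 1887 and 2807 FPKM in NSG *ATRXCT* and between 1427 and 2106 FPKM in NSG *ATRXKD* tumors. All 8 markers were expressed. The part of macrophages in the values of *Srgn* and *Fcer1g* was not tested.

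*Il1rl1*, the receptor of IL-33, was the most abundant of the 10 genes. It was between 414 and 650 FPKM in Balb/c *ATRXCT*, 586 and 779 in Balb/c *ATRXKD*, 394 and 619 in NSG *ATRXCT*, and 616 and 639 FPKM in NSG *ATRXKD* tumors. The 5 NSG *ATRXKD* tumors lay closer together than the tumors of the other 3 groups. *ATRXKD* means were higher in both hosts, at 689 ± 82.7 against 538 ± 97.8 FPKM in Balb/c mice (SD, n = 4 each) and at 629 ± 10.1 against 465 ± 100.1 FPKM in NSG mice (SD, n = 5 each). In NSG mice, 4 of 5 *ATRXKD* tumors were above every *ATRXCT* tumor, but the log2 difference of 0.46 did not pass the adjusted threshold (standard error 0.14, adjusted p = 0.0667, limma; p = 0.0159 by exact permutation). Without the *ATRXCT* tumor of mouse 1, it was 0.57 (adjusted p = 0.0407 in limma), and with the length trend removed it was 0.45 (adjusted p = 0.0491 in limma). Balb/c groups differed by 0.37, and hosts by 0.17 (adjusted p = 0.352 in limma). The annotation lists 3 transcripts of *Il1rl1*, between 2904 and 5300 nt, and a level per gene does not separate the membrane receptor from the soluble form.

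Over the 10 genes, 2 passed the adjusted threshold in NSG mice, 1 in each direction, as did 6.78% of all genes tested, and 0 also reached 2-fold, as did 0.464% of all genes (limma; 6 of the 10 genes had an unadjusted p under 0.05, as did 26.3% of all genes). Between hosts, 4 of the 10 passed, as did 10.5% of all genes, and 4 were higher, as were 6.83%. The host contrast includes the Balb/c tumors used in the choice, and *Cd200r3*, 1 of these 4, was chosen on them. *Kit* was the 1 of the 10 that also reached 2-fold on the log2 (FPKM + 1) scale, a difference of at least 1, as did 1.44% of all genes. *Cd200r3* did not reach it on that scale but was 2.35-fold higher as mean FPKM. Within *ATRXCT* tumors, *Ms4a2*, *Kit*, *Hdc*, *Gata2*, and *Cd200r3* were higher in every Balb/c than in any NSG tumor, as were 4.72% of all genes, and within *ATRXKD* tumors this was so for *Kit* and *Cd200r3*, as for 5.05% of all genes. The *Cd200r3* values in *ATRXKD* tumors rest on few fragments, as given above. The Balb/c *ATRXCT* tumors took part in the choice of some of these genes, so nothing is read from the first count. The median difference of the 10 genes was 0.16 in NSG mice and 0.25 between hosts, against −0.0014 and 0.0024 over all genes tested.

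Across tumors, the 10 genes were grouped into sets after their correlations were seen. After the mean of each group was subtracted, Pearson's r over the 18 tumors was 0.54 to 0.84 among *Fcer1a*, *Ms4a2*, and *Cd200r3*, and 0.62 to 0.85 among *Kit*, *Hdc*, and *Gata2*, while between these sets it was −0.064 to 0.49. *Fcer1g* and *Srgn* correlated at 0.81 and were negative with *Kit* (−0.59 and −0.60) and *Gata2* (−0.59 and −0.57). *Kitl* correlated at 0.71 with *Fcer1a*, 0.64 with *Fcer1g*, 0.56 with *Cd200r3*, and 0.45 with *Il1rl1*. These are descriptions of libraries that also share the length slope, which gave r = −0.71 with *Srgn*, 0.70 with *Kit*, −0.68 with *Kitl*, 0.59 with *Gata2*, −0.51 with *Fcer1a*, and −0.24 with *Cd200r3*.

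**Figure D3:**
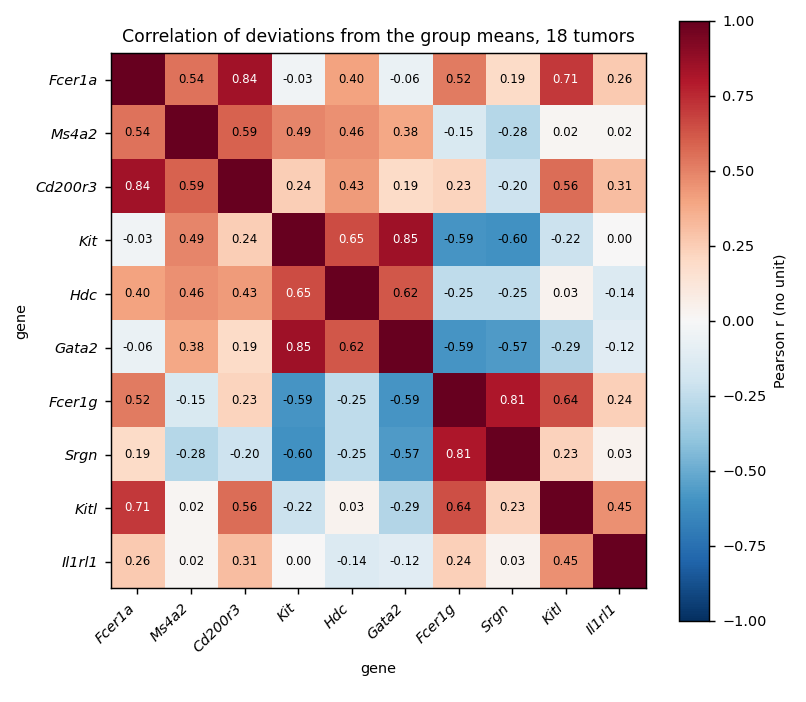
Pearson's r (color and printed value) between each pair of the 10 genes over the 18 tumors, after the mean of each group was subtracted from log2 (FPKM + 1). *Fcer1a* with *Cd200r3* (0.84), *Kit* with *Gata2* (0.85), and *Fcer1g* with *Srgn* (0.81) are the highest pairs.

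The genes most like each member, among 12173 genes averaging 1 FPKM or more, are given as a description (Pearson's r over the 18 tumors). They were partly shared within the set of *Fcer1a*, *Ms4a2*, and *Cd200r3*, and none was shared among the other members. Group means were kept in these values, so the Balb/c difference behind the choice of this set adds to them. With group means subtracted, *Tpsb2* gave r = 0.87, 0.80, and 0.81 with *Fcer1a*, *Ms4a2*, and *Cd200r3*. *Mrgprb1* gave 0.86 with *Ms4a2* and 0.68 with *Cd200r3*. For *Fcer1a* the closest genes were *Cma1* (0.93), *Tpsb2* (0.90), and *Mcpt4* (0.89), all mast cell granule proteases. For *Ms4a2* they were *Tpsb2* (0.93), the Mas-related receptor *Mrgprb1* (0.90), and the carboxypeptidase *Cpa3* (0.90), and for *Cd200r3* they were the chemokine *Cxcl12* (0.93), *Mrgprb1* (0.88), and *Tpsb2* (0.85). *Fcer1g* was most like *Tyrobp* (0.98), another signaling adaptor of myeloid cells, *Cyba* (0.98), and *Sat1* (0.97). *Srgn* was most like *Ninj1* (0.93), the myeloid transcription factor *Spi1* (0.93), and the complement gene *C1qb* (0.92). For *Kit*, the closest were *Acsf2* (0.95), *Gimap8* (0.93), and *Gimap1* (0.93), the last a pair of GTPases of the immunity-associated family, and for *Gata2* they were *Parva* (0.91), *Gdf11* (0.88), and *Fam171a1* (0.88). *Hdc* was closest to *Chga* (0.85), *Cyfip2* (0.84), and *Wnt5a* (0.81), *Kitl* to *2810002D19Rik* (0.86), *3300005D01Rik* (0.85), and *Scg5* (0.84), and *Il1rl1* to *BC055324* (0.84), *Fam19a1* (0.80), and *Map2k6* (0.80).

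Mast cell granule proteases ran with *Fcer1a*, *Ms4a2*, and *Cd200r3* also inside the groups, at r = 0.87, 0.80, and 0.79 between the deviations of each gene and of the mean of 7 protease genes. The same value was 0.60 for *Hdc*, 0.31 for *Kit*, and 0.26 for *Gata2*. The summed protease level was between 173 and 414 FPKM in Balb/c *ATRXCT*, 41.9 and 106 in Balb/c *ATRXKD*, 20.9 and 120 in NSG *ATRXCT*, and 54.7 and 106 FPKM in NSG *ATRXKD* tumors. The study picked protease genes on the same Balb/c tumors, so their Balb/c levels are a description. In NSG mice, 0 of 7 proteases passed the test in limma, as at an unadjusted p under 0.05, with a median difference of 0.43. Between hosts, 1 of 7 was higher in Balb/c tumors, *Tpsab1*, a tryptase, by 2.85 on the log2 scale (43.5 ± 38.3 FPKM, SD, n = 8, against 3.33 ± 1.34 FPKM, SD, n = 10; adjusted p = 4.25e-07 in limma), with a median of 0.57. *Tpsab1* averaged 73.3 and 13.7 FPKM in Balb/c *ATRXCT* and *ATRXKD* tumors, and 3.22 and 3.44 FPKM in the NSG groups. Of all genes tested, 6.83% passed as higher in Balb/c hosts. The host difference of *Tpsab1* includes the Balb/c levels on which proteases were picked, so it too is a description. Basophils also carry the IgE receptor. The basophil gene *Mcpt8* had group means between 1.18 and 1.83 FPKM, above those of *Ms4a2* in each NSG group and in Balb/c *ATRXKD* tumors, while *Prss34* averaged at most 0.0670 FPKM. The sum of both was between 0.106 and 2.85 FPKM in a tumor. Among Balb/c *ATRXKD* tumors, it was 2.85 FPKM in mouse 58, where *Fcer1a* was at 3.20 FPKM, and 2.69 FPKM in mouse 59, where *Fcer1a* was at 1.46 FPKM. Inside the groups, the mean of both basophil genes gave r = 0.35 with *Fcer1a*, −0.31 with *Ms4a2*, and 0.071 with *Cd200r3*. Of 6 eosinophil genes, *Epx* and *Prg3* were under 0.1 FPKM in every tumor, *Ccr3* had group means between 0.488 and 1.89 FPKM, and the sum of the 6 reached 3.51 FPKM in an NSG *ATRXKD* tumor. The part of basophils and eosinophils in the values of *Fcer1a*, *Ms4a2*, and *Cd200r3* was not tested.

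**Figure D4:**
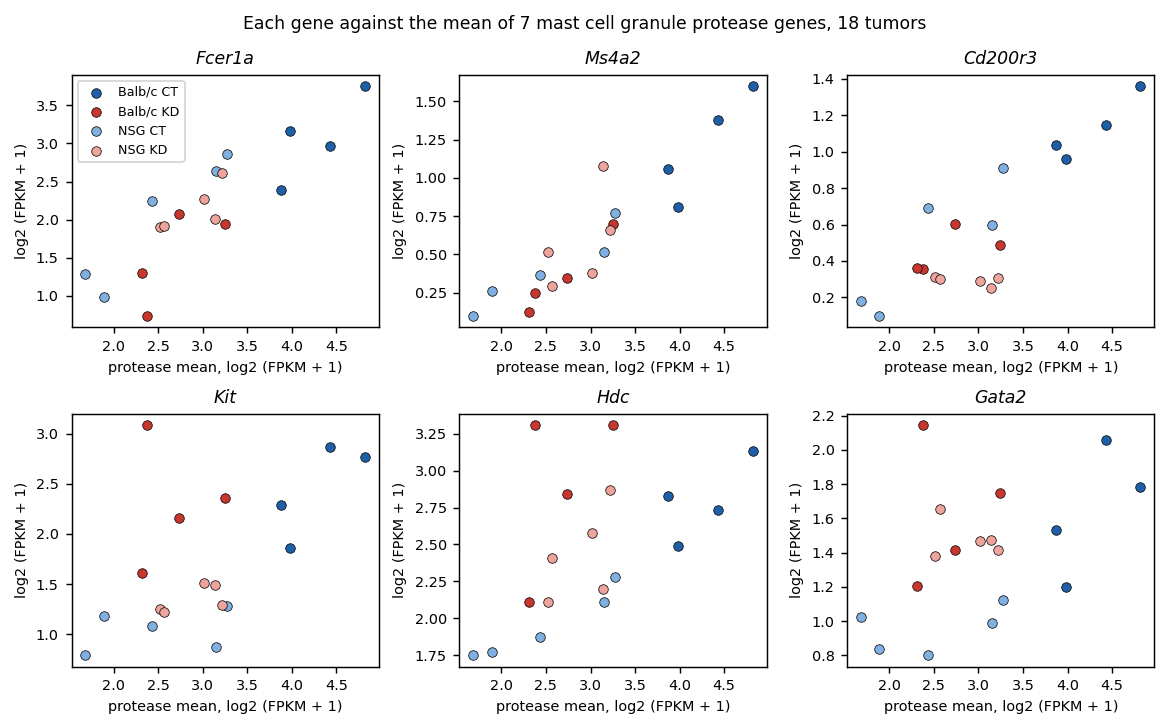
Log2 (FPKM + 1) of 6 genes in each tumor (points, colored by host and shRNA) against the mean log2 (FPKM + 1) of 7 mast cell granule protease genes. The Balb/c groups overlap in *Kit*, *Hdc*, and *Gata2* but not in their protease means. Protease genes and some of the genes shown were chosen on these Balb/c tumors, so nothing is read from this separation. With group means subtracted, r with the protease mean was 0.87, 0.80, and 0.79 for *Fcer1a*, *Ms4a2*, and *Cd200r3*. It was 0.31, 0.60, and 0.26 for *Kit*, *Hdc*, and *Gata2*.

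Downstream of the IgE receptor, 16 signaling genes were measured. Over all genes tested, 6.78% passed in NSG mice and 10.5% passed between hosts (6.83% as higher in Balb/c tumors). At an unadjusted p under 0.05 in limma, the share in NSG mice was 26.3%. These shares apply to each list below. In NSG mice 1 of 16 fell (*Lcp2*, the adaptor SLP-76, by 0.58) and 0 rose (limma, with 7 lower and 0 higher at an unadjusted p under 0.05; median difference −0.29). Between hosts, 5 of 16 were higher in Balb/c tumors and 0 were lower (median 0.27). The call at 2-fold on the log2 (FPKM + 1) scale was *Lat*, the membrane adaptor of T cells and mast cells. It was at 2.197 ± 0.520 FPKM in Balb/c (SD, n = 8) and 0.272 ± 0.180 FPKM in NSG tumors (SD, n = 10), a log2 difference of 1.32 (adjusted p = 5.17e-08 in limma). The others were *Lcp2* (0.71), *Pik3cd* (0.58), *Grap2* (0.44), and *Fyn* (0.42), and these 4, like all genes named below apart from *Lat*, *Cd200r4*, and *Ltc4s*, were picked after their values were seen. Of these, *Grap2* was above 2-fold as mean FPKM, at 0.701 FPKM in Balb/c and 0.232 FPKM in NSG tumors. Adaptors such as *Lat* also serve T and NK cells, whose lists were lower in NSG tumors (*Cd4*, which myeloid cells can also express, still averaged 3.52 FPKM in NSG *ATRXCT* and 2.86 FPKM in NSG *ATRXKD* tumors), and their part was not tested. Of 11 genes of KIT signaling, 0 passed in NSG mice in limma (3 lower at an unadjusted p under 0.05; median 0.017), and between hosts 1 was higher (*Ptpn6*, a phosphatase that restrains KIT, by 0.34) and 0 were lower.

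Of 6 other transcription factors of mast cells, 5 were tested and 0 passed in either contrast in limma (at an unadjusted p under 0.05, 3 were lower in NSG *ATRXKD* tumors and 1 was higher in Balb/c hosts; median −0.38 in NSG mice and −0.064 between hosts). *Gata1* was under the filter, with group means of at most 0.105 FPKM. Of 7 genes around the IL-33 receptor, 1 fell in NSG *ATRXKD* tumors (*Map3k7*, a kinase of the NF-kappaB path, by 0.34) and 0 passed between hosts in limma (1 higher and 1 lower at an unadjusted p under 0.05). IL-33 itself (*Il33*) had group means between 4.42 and 8.12 FPKM. Of 5 genes of CD200 and its receptors, 2 fell in NSG *ATRXKD* tumors (*Tyrobp* by 0.79 and the inhibitory receptor *Cd200r1* by 0.68). The activating receptor *Cd200r4* was higher in Balb/c hosts by 2.77 (8.60 ± 2.14 FPKM, SD, n = 8, against 0.395 ± 0.248 FPKM, SD, n = 10; adjusted p = 2.37e-11 in limma) and was the 1 of 5 that passed there.

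Among 10 genes of histamine and lipid mediators, 8 were tested in NSG mice, where 2 fell and 0 rose (limma, with 5 lower and 0 higher at an unadjusted p under 0.05; median −0.49). *Ltc4s*, leukotriene C4 synthase, fell by 1.13 on the log2 scale, with 67.5 ± 20.8 FPKM in *ATRXCT* and 30.6 ± 10.4 FPKM in *ATRXKD* tumors (SD, n = 5 each; adjusted p = 0.0239 in limma), and *Hnmt*, which inactivates histamine, fell by 0.74. Between hosts, 1 of 8 was higher, the vesicular monoamine transporter *Slc18a2* (0.29), which loads histamine into granules. Of 8 mast cell growth factors, 7 were in the matrix, 0 of 5 tested passed in NSG mice in limma, as at an unadjusted p under 0.05, and 1 of 6 was higher in Balb/c hosts (*Il4*, by 0.33, at a mean of 0.307 FPKM). Of 4 receptors that signal through the gamma chain, 3 were tested: *Fcgr3* fell in NSG *ATRXKD* tumors by 0.78, and *Fcgr1* was lower in Balb/c than in NSG hosts, at a difference of −0.75. *Gp6*, the platelet collagen receptor, was under 0.1 FPKM in every tumor.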

How the data were processed

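RNA of 18 K7M2 tumors was sequenced by the authors from ribo-depleted stranded libraries, aligned to mm10 with STAR 2.6.0c, and quantified per gene with Cufflinks 2.2.1. The deposited values are log2 (FPKM + 1) for 20878 genes and 92 spike-ins, which were left out. Samples were grouped by their labels. The 10 genes and all gene lists were chosen with earlier results of these data known.

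Differences were tested with limma 3.58.1 in R 4.3.3 (lmFit, eBayes with trend, pseudocount 1) over genes averaging 0.1 FPKM or more, with Benjamini-Hochberg adjustment over all of them. A gene passed at an adjusted p under 0.05 and was called when it also reached 2-fold, a difference of at least 1 in log2 (FPKM + 1). Genes of low FPKM can be more than 2-fold apart as mean FPKM without reaching it. For single genes, exact permutation of the tumors (two-sided) ran over 252 arrangements in NSG mice and 15876 between hosts. Steps were tested on simulated data. Genes were named by a rule: the members, the 3 most similar genes of each, and called genes of the pathway lists. Genes of these lists that passed without reaching 2-fold, and all named marker genes, were picked after their values were seen.

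Low FPKM values gave fragments near whole numbers (within 0.1) in 37.0% to 42.0% of cases, so whole reads were not recovered. Each depth was picked as the value that made this share highest. The 20% that evenly spread values would give is therefore not its chance level, and the depths are rough. The estimated depths and floors of 3 fragments cover counting error only. Python 3.11.15 read the files. Alternatives were another pseudocount (0.1), filter, scaling, removal of the length trend, library weights, a fit of all groups, single-shRNA host fits, and leaving out each tumor.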

Additional observations from a re-analysis of the deposited data

How the results depend on the processing

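The count of called genes was 68 in NSG mice, 213 between hosts, and 1 in Balb/c mice. Without the fold threshold, 994 and 1560 genes passed in NSG mice and between hosts, and with a pseudocount of 0.1 the counts were 226 and 544. Library weights gave 201 in NSG mice and 15 in Balb/c mice, and 1 fit of all groups gave 6 in Balb/c mice. In Balb/c mice, 0 genes were called in limma with no filter, with a mean of at least 1 FPKM, or with the length trend removed (unadjusted p under 0.05 for 834, 468, and 752 genes). Leaving out 1 tumor gave 27 to 124 in NSG mice and 0 to 2 in Balb/c mice. The NSG count moved by over 1.5 times without the tumor of mouse 4 (39), 26 (124), 28 (34), 29 (44), or 30 (27), and the cause was not tested.

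In the tested contrasts, signs turned for differences that did not pass the test. In NSG mice these were *Fcer1a* (−0.19) and *Ms4a2* (−0.027) with library weights. Between hosts they were *Fcer1a* (−0.63), *Ms4a2* (−0.23), and *Fcer1g* (0.16) among *ATRXKD* tumors alone, *Fcer1g* with the length trend removed (0.026) or library weights (0.016), and *Kitl* (0.057) and *Srgn* (−0.29) among *ATRXCT* tumors alone. With 1 tumor left out, *Fcer1a* in NSG mice was between −0.11 and 0.36, and between hosts *Kitl* was between −0.053 and 0.036 and *Srgn* between −0.091 and 0.10. In NSG mice, library weights with a robust prior brought *Fcer1g*, *Kit*, *Hdc*, *Il1rl1*, and *Cd200r3* past the threshold. With that setting, 6965 of 14654 genes had an unadjusted p under 0.05 in limma, against 3853 in the main fit. The gain is therefore not particular to these genes. *Ms4a2* passed between hosts with library weights (adjusted p = 0.0283 in limma). In Balb/c mice, described without a test, library weights gave *Hdc* −0.26, removal of the length trend gave *Fcer1g* −0.059, and with 1 tumor left out *Fcer1g* was between −0.16 and 0.20, *Kit* between −0.40 and 0.088, *Gata2* between −0.19 and 0.12, *Hdc* between −0.044 and 0.36, and *Srgn* between −0.31 and 0.074, so their directions there are not settled.

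No paired analysis was possible because each mouse number occurs in 1 group only. Depth limits *Ms4a2* and *Cd200r3*, whose Balb/c differences were −1.99 and −1.46 with a pseudocount of 0.1. Of 40 sets of tumors checked for a single distant value, 1 gene in 1 group each, 0 had one, where chance gives about 2.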

Other observations

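Osteoblast genes ran with 2 of the sets described above. Over the 18 tumors, the deviations of the mean of 6 osteoblast genes from the group means correlated at 0.85 with *Kit*, 0.78 with *Gata2*, and less with *Hdc* (0.52), and at −0.86 with *Srgn* and −0.84 with *Fcer1g*. Of these 6 genes, *Ibsp*, *Sp7*, *Bglap*, and *Alpl* averaged at most 0.413 FPKM in a group, and the libraries shared the length slope, so the value is a description, and 0 of 4 genes tested passed in NSG mice in limma (1 at an unadjusted p under 0.05). Endothelial genes correlated at 0.68 with *Kit*, 0.50 with *Gata2*, 0.29 with *Hdc*, −0.71 with *Fcer1g*, and −0.46 with *Srgn*. Neutrophil genes were higher in Balb/c hosts for 3 of 6 genes (*S100a8*, *S100a9*, and *Csf3r*), against 6.83% of all genes tested, with a median of 0.35.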
